A study of Caenorhabditis elegans with 16 samples.

Results

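The genes described here are the lysozymes, saposin-like proteins and antimicrobial peptide genes of C. elegans, taken as every gene whose symbol begins with lys, ilys, spp, irg, cnc, fip, fipr, thn or abf followed by a number. There were 103 such genes among 29351 genes with normalized counts. RNA-seq had been done on whole day 1 adults grown for 3 days at 20 °C, with 4 samples in each of 4 groups. The groups were rnp-6(G281D) on BW25113, rnp-6(G281D) on OP50, wild type on BW25113 and wild type on OP50. Wild type was the N2 strain, and rnp-6(G281D) carries the allele dh1127 of rnp-6, the single worm ortholog of the human splicing factor PUF60. The allele is a point mutation with reduced function rather than a deletion, and only this 1 allele was sequenced. OP50 is a B-type E. coli, the standard laboratory diet, and BW25113 is a K12-type E. coli that supplies more vitamin B12.

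C. elegans has no adaptive immune system and no circulating immune cells, so that its defence against microbes rests largely on proteins that the intestine, pharynx and epidermis secrete or store. Lysozymes cut the peptidoglycan of bacterial cell walls. The lys genes encode lysozymes of the kind also found in amoebae, and the ilys genes encode invertebrate-type lysozymes. Saposin-like proteins (spp) interact with membranes, and several of them make pores in bacterial membranes. Caenacins (cnc) and the fungus-induced proteins and their relatives (fip and fipr) are small secreted peptides known mainly from epidermal responses to fungi and wounding, thaumatin-like proteins (thn) resemble plant defence proteins, and the abf genes encode peptides related to defensins. The irg genes are not 1 protein family. They are named for their induction by pathogens, and some of them are used as readouts of the p38 MAP kinase pathway or of the ZIP-2 surveillance pathway. Since worms eat bacteria, many of these proteins also have a part in digestion.

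Of the 103 genes, 59 had a mean of at least 10 normalized counts over the 16 samples and were tested, and 44 fell under that level. The genes tested were 9 of 10 lys, 2 of 6 ilys, 15 of 23 spp, 6 of 7 irg, 6 of 11 cnc, 15 of 35 fip and fipr, 2 of 5 thn and 4 of 6 abf genes. Among the 44 that were not tested, 31 had no sample at or over 10, the highest single value was 46.4 (fipr-24), and 3 genes (lys-9, fip-7 and fipr-18) were at 0 in every sample. A count of 3 reads was worth between 2.27 and 3.40 normalized counts, depending on the sample, so a value of 0 allows up to that level. All of the invertebrate-type lysozymes other than ilys-4 and ilys-5 were thus too low to compare, ilys-3 with them, whose product is known to act in the pharynx and gut.

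Levels can be compared between genes only per length, as in the deposited FPKM values, which were there for 91 of the 103 genes. By the mean FPKM over the 16 samples, the most abundant of them was spp-5, at 519.7, whose product is a pore-forming protein of the intestine. It was followed by spp-14 (467), spp-3 (278), ilys-5 (249.8), lys-1 (237), spp-17 (193), lys-4 (103), irg-7 (96.3) and lys-8 (96.2). Saposin-like genes and lysozymes thus held 8 of the first 9 places. A mean FPKM of at least 10 was reached by 25 of the 91 genes, or 27.5%, close to the 27.7% of all genes with FPKM values. All 103 genes together took between 0.291% and 0.303% of the normalized counts in rnp-6(G281D) on BW25113, between 0.372% and 0.387% in rnp-6(G281D) on OP50, between 0.317% and 0.329% in wild type on BW25113, and between 0.361% and 0.372% in wild type on OP50. The ranges of the 2 diets were separate in each genotype, with lower shares on BW25113. Part of that gap lay in the lys genes, which took 0.0754% ± 0.00281 of the normalized counts in rnp-6(G281D) on BW25113, against 0.121% ± 0.00527 on OP50, and 0.0807% ± 0.00368 in wild type on BW25113, against 0.0973% ± 0.00294 on OP50 (SD, n = 4 each). The ilys genes took 0.055% ± 0.00295 in wild type on BW25113, against 0.0708% ± 0.00232 on OP50, a gap nearly as wide as that of the lys genes in wild type. In rnp-6(G281D) they took 0.0458% on BW25113, against 0.0465% on OP50. The irg genes took 0.0666% ± 0.00225 in rnp-6(G281D) on BW25113, against 0.099% ± 0.00294 on OP50. In wild type the irg genes took 0.0676% ± 0.0021 on BW25113, against 0.0709% ± 0.00158 on OP50.

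The 16 samples were similar in depth, with 36330390 to 38381707 normalized counts and about 32551900 to 48167700 reads as read from the smallest steps of low values. Samples of 1 group correlated with r from 0.988 to 0.994 across the genes tested. rnp-6 itself is not lost in a point mutant, and its level is no check of the labels. It lay between 7213 and 7519 normalized counts in rnp-6(G281D) on BW25113 and between 6798 and 7189 on OP50, against 5236 to 5548 in wild type on BW25113 and 5484 to 5718 on OP50. Marker genes of intestine, epidermis, pharynx, body wall muscle, neurons, coelomocytes, oocytes, sperm and yolk were all detected, as whole animals should give. In bulk RNA of whole worms, fewer cells of a type and less RNA per cell cannot be told apart. No label says whether the replicates were separate cultures, so that the p-values measure the spread between these samples, which may be technical.

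The first comparison asked which of these genes the rnp-6 mutation altered on the standard diet. Changes went both ways and differed within families. The lysozymes lys-2, lys-3 and lys-5, the saposin-like gene spp-18, the pathogen-response genes irg-1 and irg-2, the defensin-like gene abf-2 and fipr-29 were higher in rnp-6(G281D). The lysozymes lys-10 and ilys-5, 5 saposin-like genes, irg-3, irg-4 and irg-5, cnc-3 and thn-1 were lower. In all, 20 of the 59 genes tested (33.9%) passed the test, 8 higher and 12 lower, where a call means an adjusted p under 0.05 and an absolute log2 fold change (log2FC) over 0.5 in limma. Over all 15799 genes tested 11.5% were called, 5.90% higher and 5.60% lower. The 2 groups of 4 samples did not overlap in 31 of the 59 genes (52.5%), against 30.7% of all genes. The median absolute log2FC was 0.39 in these genes and 0.15 over all genes, and the median log2FC was 0.05, so that the genes as a whole had no single direction. By family, calls were made in 4 of 9 lys, 1 of 2 ilys, 6 of 15 spp, 5 of 6 irg, 1 of 6 cnc, 1 of 15 fip and fipr, 1 of 2 thn and 1 of 4 abf genes.

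**Figure D1:**
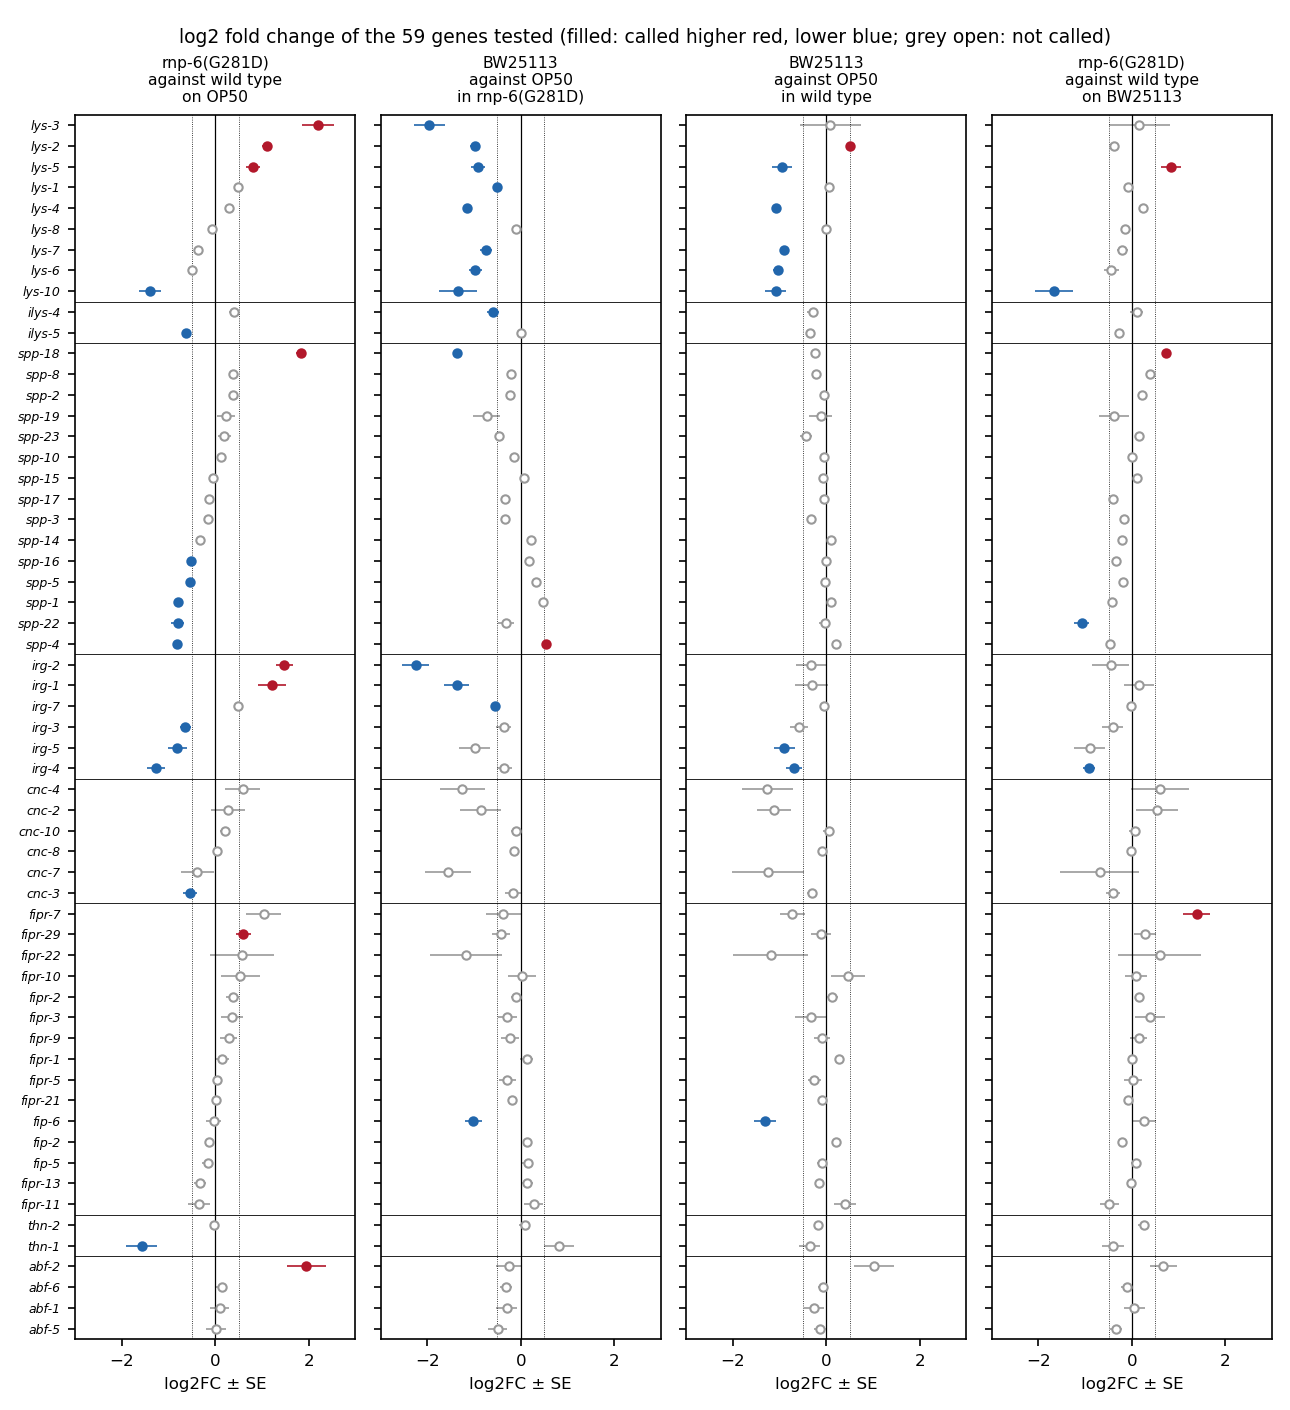
log2 fold change (x axis, log2 of normalized count plus 1, with its standard error) of the 59 genes tested (y axis, by family, ordered by the first panel) in 4 comparisons. Filled red points were called higher, filled blue points were called lower and open grey points were not called; dotted lines mark an absolute log2FC of 0.5. On OP50 the mutant has red and blue points in the same families (8 higher and 12 lower), while in the mutant on BW25113 against OP50 14 of the 15 calls are blue.

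The neighbouring lysozymes lys-1, lys-2 and lys-3 were higher in the mutant to different degrees. lys-2, a lysozyme gene known to respond to pathogenic bacteria, had 6083, 7182, 6269 and 4818 normalized counts in the 4 samples of rnp-6(G281D) on OP50, against 2546, 2960, 3008 and 2731 in wild type on OP50. The groups were far apart, with every mutant sample above every wild type sample. The ratio of the means was 2.17, with a log2FC of 1.10 ± 0.10 (SE, limma adjusted p = 2.3e-05). lys-3 is far less abundant and had 77.1, 114, 144 and 99.5 normalized counts in the mutant, against 14.6, 13.1, 40.2 and 30.6 in wild type. It had the highest log2FC of the genes tested, 2.21 ± 0.34 (adjusted p = 7.8e-04). lys-1 was the most abundant lys gene. Its values of 16346, 17480, 17154 and 16506 in the mutant all lay above the 12383, 12269, 11810 and 12050 of wild type, and the log2FC of 0.48 ± 0.03 (adjusted p = 8.2e-07) stayed just under the threshold of 0.5.

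The other lysozymes were divided. lys-5 had 150, 139, 117 and 185 normalized counts in rnp-6(G281D) on OP50, against 92.6, 78.8, 91.0 and 73.0 in wild type, a log2FC of 0.80 ± 0.15 (adjusted p = 0.0026). In FPKM values the same comparison gave a log2FC of 0.03 (adjusted p = 0.896), so that the rise of lys-5 rests on the normalized counts alone. lys-4 had a log2FC of 0.30 (adjusted p = 4.6e-04), under the fold threshold. lys-6 and lys-7 had log2FCs of -0.50 (adjusted p = 0.0019) and -0.36 (adjusted p = 0.0050), also not called. lys-7 is a lysozyme widely used as a marker of DAF-16 and immune activity. lys-10, at 11.3, 9.93, 9.09 and 10.2 normalized counts in the mutant and 26.8, 20.2, 36.2 and 33.2 in wild type, was called lower (log2FC -1.41 ± 0.23, adjusted p = 0.0012). It passed the filter mainly through wild type on OP50 (mean 29.1), the other groups having means of 3.88, 10.1 and 12.9. lys-8 hardly moved, with a log2FC of -0.08 (adjusted p = 0.084). Among all 9 lys genes tested the 2 groups did not overlap, 5 being above and 4 below wild type.

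**Figure D2:**
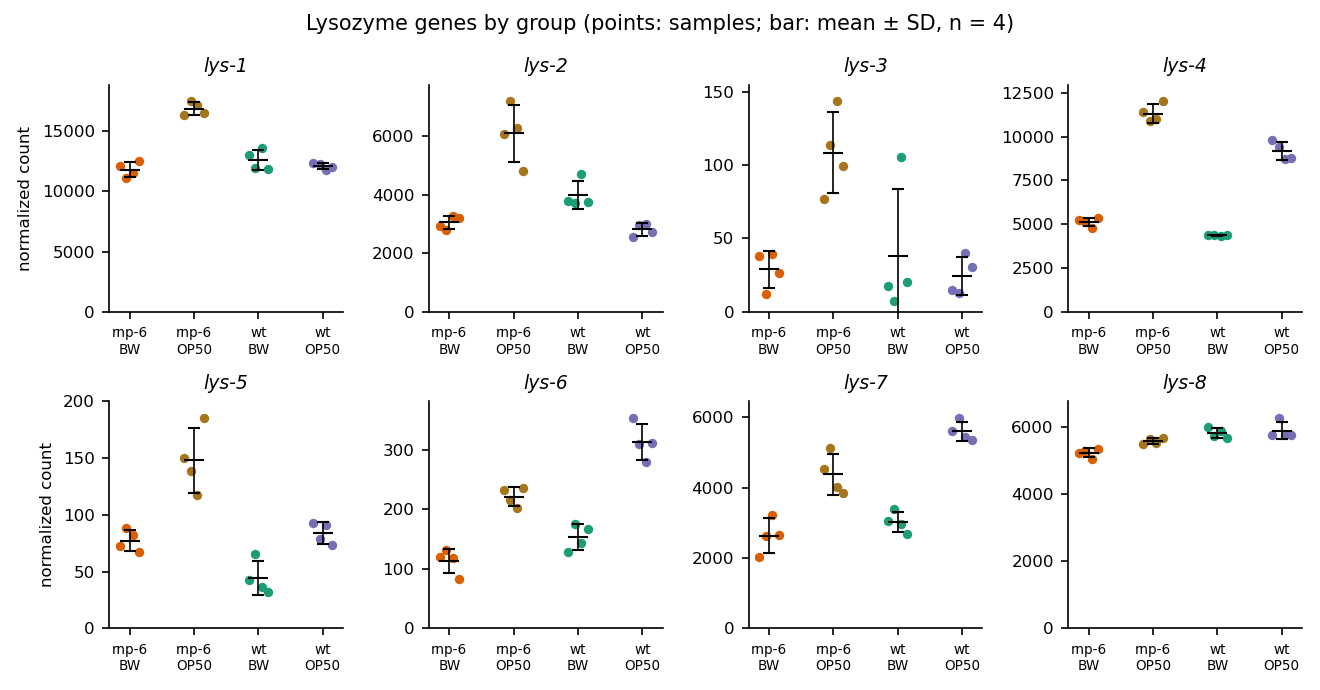
Normalized counts (y axis, from 0) of 8 lysozyme genes in rnp-6(G281D) on BW25113, rnp-6(G281D) on OP50, wild type on BW25113 and wild type on OP50 (x axis, in this order). Points are samples and bars are the mean ± SD of 4; the mutant on OP50 has the highest mean in lys-1, lys-2 and lys-3 (16870, 6088 and 108.5), with 1 sample of wild type on BW25113 (106) inside its range in lys-3, whereas lys-4, lys-6 and lys-7 are lower on BW25113 in both genotypes and lys-8 is nearly level.

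ilys-5, the more abundant of the invertebrate-type lysozymes, fell. It had 17455, 16629, 17008 and 16585 normalized counts in rnp-6(G281D) on OP50, against 27047, 26206, 24666 and 26465 in wild type, with no sample between 17455 and 24666. The ratio of the means was 0.648 and the log2FC -0.62 ± 0.03 (adjusted p = 2.8e-07). ilys-4 was not called in this comparison.

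Among the saposin-like genes 1 was called higher and 5 lower. spp-18 had 1102, 1168, 896 and 1067 normalized counts in rnp-6(G281D) on OP50, against 331, 314, 271 and 270 in wild type. The lowest mutant sample was thus more than double the highest wild type sample, and the log2FC was 1.83 ± 0.09 (adjusted p = 4.0e-07). spp-1, which encodes a saposin-like protein with antibacterial activity and is a known target of DAF-16, had 580, 646, 571 and 505 normalized counts in the mutant, against 976, 986, 984 and 1055 in wild type. Its log2FC was -0.80 ± 0.07 (adjusted p = 1.3e-05). spp-5, the most abundant of all these genes per length, had 6622, 6798, 6469 and 6314 in the mutant, against 9902, 9430, 9329 and 9681 in wild type, with a log2FC of -0.55 ± 0.03 (adjusted p = 5.5e-07). The remaining falls were those of spp-4 (log2FC -0.81 ± 0.10, adjusted p = 1.2e-04), spp-22 (-0.80 ± 0.14, adjusted p = 0.0017) and spp-16 (-0.53 ± 0.07, adjusted p = 1.7e-04). spp-14 and spp-3, also abundant, had smaller differences of -0.32 and -0.15 that did not reach the fold threshold. The genes called lower on OP50 ranged in mean FPKM from 1.25 (spp-22) to 519.7 (spp-5), and spp-18, the single rise, had 23.2.

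**Figure D3:**
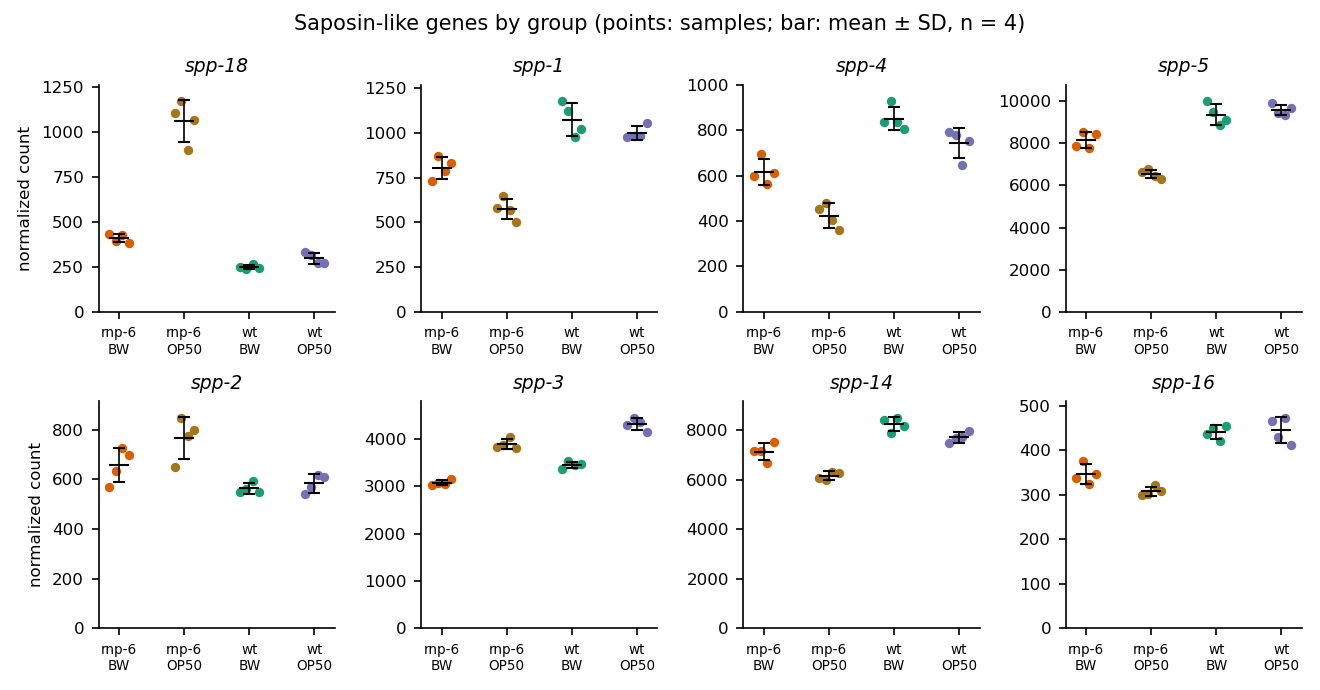
Normalized counts (y axis, from 0) of 8 saposin-like genes in rnp-6(G281D) on BW25113, rnp-6(G281D) on OP50, wild type on BW25113 and wild type on OP50 (x axis, in this order). Points are samples and bars are the mean ± SD of 4; spp-18 is highest in the mutant on OP50 (mean 1058 against 296.7 in wild type on OP50), where spp-1, spp-4 and spp-5 are lowest.

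The pathogen-response genes separated into 2 sets. irg-1 and irg-2 are known targets of the transcription factor ZIP-2, which responds to infection and to blocked translation. irg-2 had 104, 111, 168 and 123 normalized counts in rnp-6(G281D) on OP50, against 46.4, 42.4, 53.6 and 35.6 in wild type, a log2FC of 1.48 ± 0.18 (adjusted p = 1.8e-04). irg-1 was scarce, with 18.5, 25.3, 22.7 and 18.2 in the mutant and 6.05, 15.1, 9.31 and 5.81 in wild type, and had a log2FC of 1.22 ± 0.31 (adjusted p = 0.013). Its mean was 21.2 in the mutant on OP50 and under 10 in every other group (7.64, 6.84 and 9.08). It thus passed the filter only through the samples in which it was high, and its calls are not free of that choice. irg-4 and irg-5, known as genes that depend on the p38 kinase PMK-1, moved the other way. irg-4 had 105, 67.8, 88.4 and 89.4 in the mutant, against 199, 236, 150 and 272 in wild type (log2FC -1.26 ± 0.19, adjusted p = 6.1e-04). irg-5 had 42.2, 61.4, 45.3 and 69.0 in the mutant, against 93.7, 107, 68.1 and 116 in wild type, and was called (log2FC -0.81 ± 0.21, adjusted p = 0.0147) although 1 mutant sample lay above the lowest wild type sample. irg-3 was also lower (log2FC -0.64 ± 0.12, adjusted p = 0.0025). irg-7 is the most abundant irg gene, and its product is required for normal intestinal immune responses. It had 36333, 34951, 35329 and 37676 in the mutant, against 25992, 26456, 25367 and 25284 in wild type, a ratio of 1.40 with a log2FC of 0.48 ± 0.03 (adjusted p = 7.9e-07), just under the fold threshold.

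**Figure D4:**
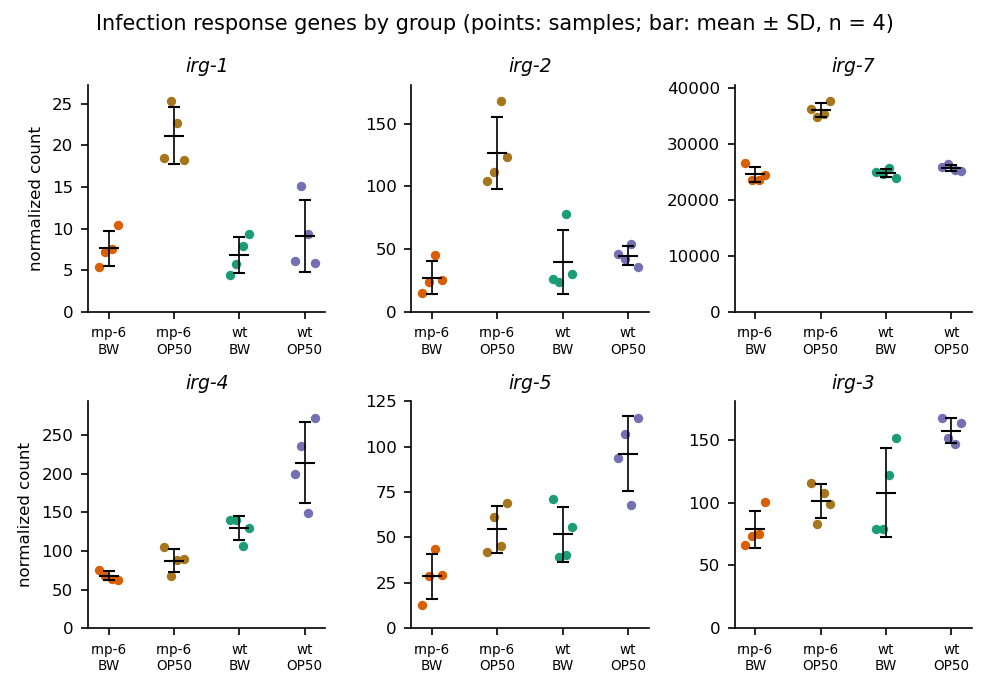
Normalized counts (y axis, from 0) of the 6 irg genes tested in rnp-6(G281D) on BW25113, rnp-6(G281D) on OP50, wild type on BW25113 and wild type on OP50 (x axis, in this order). Points are samples and bars are the mean ± SD of 4; irg-1, irg-2 and irg-7 are highest in the mutant on OP50 (means 21.2, 126.5 and 36070), while irg-3, irg-4 and irg-5 are highest in wild type on OP50.

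In the small peptide families few genes were called on OP50, and those were of low abundance. abf-2 encodes a defensin-like peptide that acts against bacteria in vitro. It had 13.1, 22.7, 21.7 and 19.6 normalized counts in rnp-6(G281D), against 8.80, 2.04, 2.08 and 6.65 in wild type, where 2 samples were below the level of 3 reads. Its log2FC was 1.95 ± 0.42 (adjusted p = 0.0053). Its mean was 19.3 in the mutant on OP50 and 15.98 in the mutant on BW25113, against 4.89 and 9.61 in wild type. It thus passed the filter only through the mutant samples, in which it was high, and its call is not free of that choice. thn-1, a thaumatin-like gene, had 8.21, 8.13, 20.4 and 9.09 in the mutant, against 46.7, 28.3, 24.8 and 39.0 in wild type (log2FC -1.58 ± 0.33, adjusted p = 0.0043). In FPKM values its log2FC was -1.04 with an adjusted p of 0.244. Its close neighbour thn-2, with a mean of 668.5 normalized counts, overlapped between the groups. fipr-29 was higher (log2FC 0.60, adjusted p = 0.0199) and cnc-3 lower (log2FC -0.54, adjusted p = 0.0214). With the replicate number as a block, cnc-4, fipr-7 and fipr-22 were called higher as well (adjusted p = 0.0083, 0.037 and 0.03, against 0.276, 0.0572 and 0.581 without it), and 23 genes were called in all. The calls of fipr-29, cnc-3 and spp-16 were lost in some fits that left out 1 sample.

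Tissue markers also moved on OP50. None of 5 intestinal markers was called, but 4 of them (elt-2, ges-1, ifb-2 and act-5) had every mutant sample above every wild type sample, with log2FCs from 0.14 to 0.42. Their sum was 98513 to 107364 normalized counts in rnp-6(G281D), against 96039 to 108223 in wild type, and was made up mostly of the fifth, asp-1, at a log2FC of -0.05. The 5 neuronal markers, none of them called, summed to 5050 to 5308 in the mutant, against 4433 to 4665 in wild type, without overlap. Of 6 yolk genes, vit-1 and vit-5 were called lower in the mutant (log2FC -1.30 and -0.52), while vit-2, vit-3 and vit-6 lay wholly above wild type without a call (log2FC 0.20, 0.41 and 0.08). The share of yolk genes called was 33.3%, against 11.5% of all genes, and the share without overlap was 83.3%, against 30.7%. The collagen gene dpy-7 was higher (log2FC 1.52, adjusted p = 0.0397). The part of these genes in the values above was not tested.

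The second comparison, BW25113 against OP50 in rnp-6(G281D), asked what the K12-type diet did in the mutant. Nearly all calls were falls: 14 genes were lower and 1, spp-4, was higher, together 25.4% of the 59, against 9.36% of all genes (2.15% higher and 7.22% lower). The lysozymes stood out by number. All 9 lys genes had every BW25113 sample below every OP50 sample, and 8 of them were called lower, lys-8 being the exception. The groups did not overlap in 24 of the 59 genes (40.7%), against 23.1% of all genes, and the median log2FC was -0.31. The other genes called lower were irg-1, irg-2 and irg-7, spp-18, ilys-4 and fip-6, and no cnc, thn or abf gene was called. With the replicate block, cnc-2, cnc-4, irg-5 and fipr-22 were called lower as well (adjusted p = 0.025, 0.00055, 0.043 and 0.015).

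Several genes that had been higher in the mutant on OP50 were low in it on BW25113. These 2 comparisons share the mutant samples on OP50, so their values are given side by side and are not independent. lys-2 had 2945, 2801, 3275 and 3194 normalized counts in rnp-6(G281D) on BW25113, against the 6083, 7182, 6269 and 4818 on OP50 given above (log2FC -0.98 ± 0.10, adjusted p = 7.9e-05). lys-3 had 37.9, 12.4, 39.7 and 26.2 on BW25113, with a log2FC of -1.96 ± 0.34 (adjusted p = 0.0031). lys-1 had 12079, 11125, 11526 and 12525, a ratio to OP50 of 0.700 with a log2FC of -0.52 ± 0.04 (adjusted p = 9.4e-06), which came under the threshold without OP50 replicate 2 or BW25113 replicate 2 (log2FC -0.50 and -0.49). These lys-1 values overlapped those of wild type on BW25113, which are given with the interaction. spp-18 had 433, 395, 427 and 385 (log2FC -1.36 ± 0.08, adjusted p = 1.5e-06), irg-7 had 26602, 23584, 23676 and 24556 (log2FC -0.55 ± 0.04, adjusted p = 7.9e-06), and irg-2 had 15.2, 23.7, 45.3 and 25.1 (log2FC -2.25 ± 0.29, adjusted p = 4.4e-04). The fall of irg-2 was the steepest of all 59 genes in this comparison. irg-1, with 5.41, 7.17, 7.54 and 10.4 on BW25113, was lower by a log2FC of -1.38 ± 0.27 (adjusted p = 0.0058). The limit set by the filter, given above for irg-1, holds here too.

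The 12 genes that had been lower in the mutant on OP50 differed in what BW25113 did. spp-4, with 597, 697, 561 and 613 normalized counts on BW25113, against 451, 481, 404 and 359 on OP50, was the single gene called higher (log2FC 0.54 ± 0.10, adjusted p = 0.0037). The call was lost without OP50 replicate 4 or BW25113 replicate 2, where the log2FC was 0.47 and 0.48. spp-1, with 732, 871, 786 and 831 on BW25113, had a log2FC of 0.48 (adjusted p = 0.0021), and spp-5, with 7891, 8535, 7795 and 8424, a log2FC of 0.32 (adjusted p = 2.3e-04), both under the fold threshold. ilys-5 had the same mean on BW25113 and OP50, with a log2FC of 0.00 (adjusted p = 0.991). irg-4 had 75.8, 68.0, 64.2 and 62.8 on BW25113 and was not called. lys-10 was lower still on BW25113 (log2FC -1.35 ± 0.41, adjusted p = 0.0444). irg-5, at -0.99 ± 0.33 (adjusted p = 0.0596), and thn-1, at 0.82 ± 0.33 (adjusted p = 0.11), had wide errors and were not called, and neither were irg-3, spp-16, spp-22 and cnc-3.

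The third comparison, BW25113 against OP50 in wild type, gave the diet effect without the mutation. It involved 9 of the 59 genes (15.3%), 8 lower and 1 higher, against 3.33% of all genes (0.741% higher and 2.59% lower). The genes lower were lys-4, lys-5, lys-6, lys-7 and lys-10, irg-4, irg-5 and fip-6, and the gene higher was lys-2. No spp gene was called among 15. lys-4 showed the cleanest difference, with 4373, 4370, 4351 and 4379 normalized counts on BW25113, against 9815, 9425, 8737 and 8784 on OP50 (log2FC -1.07 ± 0.04, adjusted p = 3.0e-08). In the mutant it had 5217, 5148, 4778 and 5341 on BW25113, against 11410, 10874, 10996 and 12021 on OP50 (log2FC -1.15 ± 0.04, adjusted p = 1.0e-07). lys-4 was thus lower in both genotypes, and the difference between the 2 effects was -0.07 ± 0.06 (adjusted p = 0.573), with a 95% interval from -0.20 to 0.05.

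The other 4 lysozymes called lower in both genotypes also had no called difference between the effects. lys-7 had 3041, 3379, 2963 and 2675 normalized counts in wild type on BW25113, against 5605, 5982, 5429 and 5361 on OP50 (log2FC -0.90 ± 0.06, adjusted p = 1.4e-05). In rnp-6(G281D) it had 2015, 2626, 3235 and 2658 on BW25113, against 4519, 5112, 4006 and 3853 on OP50 (log2FC -0.74 ± 0.13, adjusted p = 0.003). The difference of its effects was 0.15 ± 0.16, with a 95% interval from -0.18 to 0.49. lys-6 had log2FCs of -0.98 ± 0.14 in the mutant and -1.03 ± 0.11 in wild type. lys-5 had log2FCs of -0.92 ± 0.16 in the mutant and -0.95 ± 0.21 in wild type, the call in wild type being lost without wild type OP50 replicate 1 (adjusted p = 0.0736) or BW25113 replicate 3 or 4 (0.0514 and 0.0518). The 95% intervals of the differences were wider for these scarcer genes, from -0.34 to 0.45 for lys-6 and from -0.53 to 0.61 for lys-5. lys-10 had log2FCs of -1.35 ± 0.41 in the mutant, where its samples on BW25113 ran from 1.02 to 6.27 normalized counts, and -1.09 ± 0.23 in wild type. In the mutant the lys-10 call was lost with a replicate block (adjusted p = 0.056) and in 6 of the 8 fits without 1 sample, and in wild type without OP50 replicate 4 (adjusted p = 0.0613). Among the remaining families, fip-6, a fungus-induced protein gene, had 24.9, 21.3, 30.05 and 32.3 in the mutant on BW25113, against 52.0, 55.1, 53.3 and 61.0 on OP50, and 14.2, 29.9, 25.5 and 22.03 in wild type on BW25113, against 63.9, 43.5, 63.4 and 57.5 on OP50. Its log2FCs were -1.02 ± 0.19 in the mutant (adjusted p = 0.0043) and -1.31 ± 0.24 in wild type (adjusted p = 0.0088).

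The calls of irg-4 (log2FC -0.70 ± 0.17, adjusted p = 0.0333) and irg-5 (log2FC -0.90 ± 0.22, adjusted p = 0.0359) in wild type were less firm. Each was kept in only 2 of the 8 fits that left out 1 sample, with adjusted p-values of up to 0.0928 for irg-4 and 0.111 for irg-5. The number of genes called in wild type lay between 5 and 10 over those fits, with 5 reached without wild type OP50 replicate 1 and without wild type OP50 replicate 4. With the replicate block, cnc-2, cnc-4, irg-3 and fipr-22 were also called lower on BW25113 in wild type (adjusted p = 0.0029, 0.015, 0.048 and 0.028), and 13 genes were called in all.

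Tissue markers moved with diet beside these genes. The summed level of 5 intestinal markers was 75320 to 82808 normalized counts in rnp-6(G281D) on BW25113, against 98513 to 107364 on OP50, and 77583 to 87560 in wild type on BW25113, against 96039 to 108223 on OP50, although none of the 5 was called. asp-1 carried most of these sums, with log2FCs of -0.42 in the mutant and -0.38 in wild type. In the mutant 4 of the 5 markers (80.0%, against 23.1% of all genes) lay wholly below OP50 (median log2FC -0.23). In wild type 2 did (asp-1 and act-5, 40.0% against 13.4% of all genes), and the median log2FC was -0.03. The sum of 7 sperm genes was 595 to 1086 in the mutant on BW25113, against 1201 to 2163 on OP50. In wild type it was 948 to 1331 on BW25113, against 1296 to 1819 on OP50. Of the 7, 5 were called lower in the mutant (71.4%, against 7.22% of all genes) and 3 in wild type (42.9%, against 2.59%). The 6 yolk genes summed to 677091 to 714620 in the mutant on BW25113, against 491839 to 566171 on OP50, and to 529769 to 623367 in wild type on BW25113, against 531049 to 557529 on OP50. None of these lists had a gene at 0, and their part in the changes of the lysozymes was not tested.

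The fourth comparison, rnp-6(G281D) against wild type on BW25113, found 6 of the 59 genes called (10.2%), 3 higher and 3 lower, against 5.68% of all genes. The share called lower was 3 of 59, against 3.47% of all genes, and the share called higher was also 3 of 59, against 2.22%. The groups did not overlap in 20 of the 59 genes (33.9%, against 20.3% of all genes). Of these, 5 were above and 15 below wild type. spp-18 was higher in the mutant on this diet as well, with 433, 395, 427 and 385 normalized counts in rnp-6(G281D) and 250, 239, 263 and 242 in wild type (log2FC 0.72 ± 0.07, adjusted p = 6.7e-05). lys-5 was higher (log2FC 0.84 ± 0.22, adjusted p = 0.0252), but not in FPKM values, where the log2FC was 0.08 (adjusted p = 0.775), and the call was lost without wild type BW25113 replicate 1, 3 or 4 or rnp-6(G281D) BW25113 replicate 2 (adjusted p from 0.0562 to 0.0731). fipr-7, a relative of the fungus-induced peptides, had 24.8, 17.2, 13.2 and 14.6 in the mutant, against 7.62, 5.80, 5.26 and 5.08 in wild type (log2FC 1.38 ± 0.29, adjusted p = 0.0081). Its mean was 17.4 in the mutant on BW25113 and 25.2 on OP50, against 5.94 and 10.5 in wild type. It passed the filter mainly through the mutant samples, in which it was high, and its calls are not free of that choice. The genes lower were lys-10 (log2FC -1.67 ± 0.40, adjusted p = 0.0184), spp-22 (-1.08 ± 0.15, adjusted p = 8.2e-04) and irg-4 (-0.92 ± 0.13, adjusted p = 9.9e-04). lys-2 had 2945 to 3275 in the mutant, against 3702 to 4712 in wild type, a log2FC of -0.38 that did not reach the fold threshold. With the replicate block cnc-2 and cnc-4 were called higher as well (adjusted p = 0.049 and 0.047).

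Whether the diet effect differed between the genotypes was tested directly by the interaction, taken as the diet effect in rnp-6(G281D) minus that in wild type. Of the 59 genes 5 were called (8.5%), all negative, against 2.42% of all genes (0.361% positive and 2.06% negative). They were lys-1, lys-2, spp-18, irg-2 and irg-7. For lys-2 the 2 effects had opposite signs, -0.98 in the mutant and 0.50 ± 0.08 in wild type (adjusted p = 0.0035), where it had 3780, 3702, 4712 and 3759 normalized counts on BW25113, against 2546, 2960, 3008 and 2731 on OP50. The difference was -1.48 ± 0.14 (adjusted p = 5.1e-06). The rise in wild type stood at the threshold of 0.5 and was lost without wild type BW25113 replicate 3 (log2FC 0.42, adjusted p = 0.0015) and without wild type OP50 replicate 1 or 4 (log2FC 0.45 and 0.49).

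For the other 4 genes wild type had no called change with diet. lys-1 had 12989, 11982, 13582 and 11885 normalized counts in wild type on BW25113, and the interaction was -0.57 ± 0.06 (adjusted p = 1.4e-05). spp-18 had an effect of -0.25 ± 0.08 in wild type (adjusted p = 0.109), and the interaction was -1.11 ± 0.12 (adjusted p = 1.6e-05). irg-7 had 24997, 24612, 25777 and 24009 in wild type on BW25113, with an interaction of -0.50 ± 0.05 (adjusted p = 9.0e-06). This value lies at the fold threshold, and the call was lost in 9 of 16 fits without 1 sample, each time with an adjusted p of at most 4.4e-05. irg-2 had 26.3, 24.03, 77.9 and 30.5 in wild type on BW25113. All but the 77.9 of replicate 3 lay below the 35.6 to 53.6 of wild type on OP50. In fits without 1 sample its effect in wild type ran from -0.70 to -0.14, and none was called. Its interaction was -1.93 ± 0.47 (adjusted p = 0.0241). That call was lost when wild type OP50 replicate 4 (adjusted p = 0.056), rnp-6(G281D) OP50 replicate 3 (0.0521) or rnp-6(G281D) BW25113 replicate 2 (0.0503) was left out. Over the fits without 1 sample, the number of interaction calls lay between 3 and 5, with 3 reached when either wild type OP50 replicate 4 or rnp-6(G281D) BW25113 replicate 2 was left out.

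lys-3 had an interaction as large as that of irg-2, -2.04 ± 0.82, but was not called (adjusted p = 0.192). In wild type on BW25113 it had 17.5, 7.69, 106 and 20.3 normalized counts, so that 1 sample was far above the other three. With the replicate block it was called (adjusted p = 0.04). spp-5, ilys-5 and spp-1 had positive interactions of 0.35, 0.36 and 0.38 with adjusted p-values of 6.5e-04, 9.7e-04 and 0.0412, all under the fold threshold. In ilys-5 the effect of BW25113 was -0.36 ± 0.04 in wild type, with 21749, 20666, 18695 and 20352 normalized counts on that diet, and 0.00 ± 0.03 in the mutant.

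**Figure D5:**
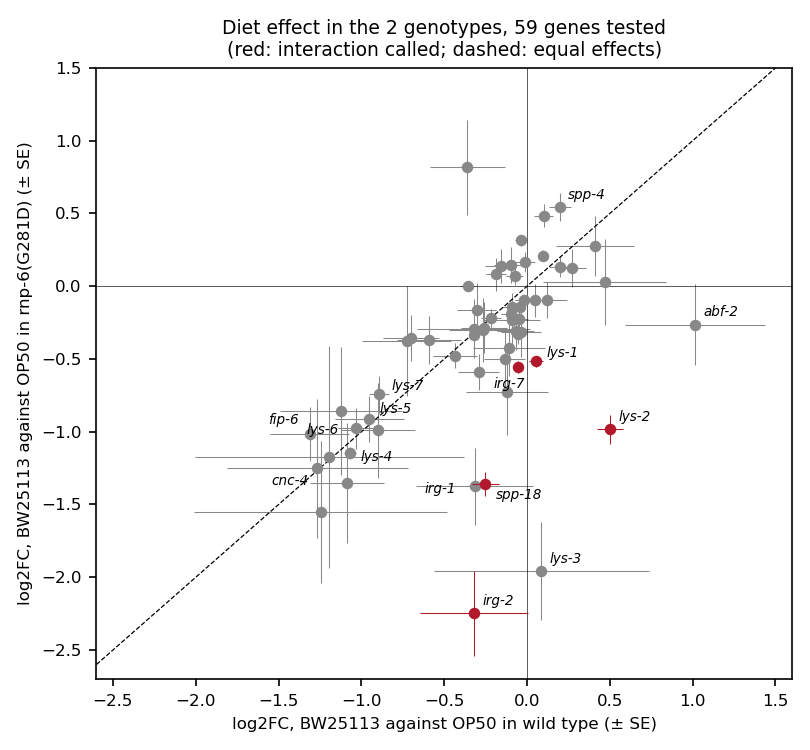
Diet effect, BW25113 against OP50, in the mutant (y axis) and in wild type (x axis) for the 59 genes tested, as log2 fold change of normalized count plus 1 with standard errors. Red points are the 5 genes with a called interaction and the dashed line marks equal effects; lys-4, lys-5, lys-6, lys-7 and fip-6 sit near the line at about the same fall in both genotypes, while lys-1, lys-2, spp-18, irg-2 and irg-7 lie below it.

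The position of the genes in the genome, which the choice of genes did not use, set some of these patterns side by side. With gaps of at most 10 kb in the WBcel235 annotation, 64 of the 103 genes fell into 23 clusters, 36 of them tested. lys-1, lys-2 and lys-3 lie within 5.6 kb (chromosome V, 10277904 to 10283544). Over the 16 samples lys-1 correlated with lys-2 at r = 0.91 and with lys-3 at r = 0.79, and after group means were removed the values were 0.51 and 0.53. These correlations, on log2 values, are descriptions over samples that share their groups. lys-4, lys-5 and lys-6 lie within 6.5 kb (chromosome IV, 11621429 to 11627947). All members of that cluster were called lower on BW25113 in both genotypes, whereas on OP50 the mutant was above wild type in lys-4 and lys-5 and below it in lys-6. Of these genotype differences only that of lys-5 was called, and it was absent in FPKM values (log2FC 0.03). lys-4 correlated with lys-5 at r = 0.82 and with lys-6 at 0.75, but at 0.19 and 0.12 after group means were removed. The saposin cluster of spp-3, spp-2, spp-6, spp-4 and spp-5 spans 5.4 kb (chromosome X, 7314969 to 7320354). Within it spp-4 and spp-5 were called lower in the mutant on OP50, while spp-2 had 651, 848, 776 and 797 normalized counts in the mutant and 540, 568, 620 and 610 in wild type and was not called. spp-2 correlated with spp-4 at r = -0.85, and spp-4 with spp-5 at 0.95, or at -0.28 and 0.65 after group means were removed. Such neighbours can be similar in sequence, and reads may have been divided between them in the estimation of abundance.

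The caenacins cnc-2 and cnc-4, which lie in the cluster on chromosome V between 1442342 and 1450183, and fipr-22 on chromosome I varied strongly between replicates. cnc-4 had 56.2, 59.7, 219 and 141 normalized counts in replicates 1 to 4 of rnp-6(G281D) on BW25113, against 151, 141, 397 and 405 on OP50, and 35.9, 24.1, 196 and 110 in wild type on BW25113, against 125, 113, 234.8 and 198 on OP50. Replicates 3 and 4 were above replicates 1 and 2 in each group. fipr-22 had 35.7, 74.8, 356 and 124 in the mutant on BW25113, against 110, 87.6, 723 and 455 on OP50, and 24.03, 20.2, 350 and 129 in wild type on BW25113, against 109, 73.7, 362 and 221 on OP50. cnc-2 had the same order of replicates, highest in number 3 or 4 in each group. What differed between the replicates is not given in the sources used here. cnc-8, the most abundant caenacin, was nearly level, with 675 to 787 in the mutant on BW25113, 748 to 826 in the mutant on OP50, 689 to 778 in wild type on BW25113 and 697 to 829 in wild type on OP50. lys-8, fip-2, abf-6 and thn-2 were likewise called in no comparison.

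Genes known to act in the pathways that control these effectors were called at shares that rest on very few genes each. Of 6 p38 pathway genes, 1 (16.7%, against 11.5% of all genes) was called on OP50, the phosphatase gene vhp-1, a negative regulator of the kinases, which was higher in the mutant (log2FC 0.62 ± 0.14, adjusted p = 0.0083) and lower in the mutant on BW25113 against OP50 (log2FC -0.80 ± 0.16, adjusted p = 0.007). Of 10 transcription factors and receptors of intestinal defence, cebp-1 (10.0%) was called higher in the mutant on OP50 (log2FC 0.90 ± 0.19, adjusted p = 0.0042), and 8 of the 10 (80.0%, against 30.7% of all genes) lay wholly above wild type, with a median log2FC of 0.20. cebp-1 encodes a C/EBP transcription factor. On BW25113 against OP50 in the mutant, cebp-1 (log2FC -1.02 ± 0.20, adjusted p = 0.0067) and zip-2 (log2FC -0.75 ± 0.06, adjusted p = 9.5e-06) were lower, 20.0% of the list against 9.36% of all genes. The wild type showed no call in either list with diet. zip-2 nevertheless lay wholly below OP50 there too, at 2025 to 2534 normalized counts on BW25113, against 2915 to 3307 on OP50 (log2FC -0.43). No gene of either list was called in the interaction, where 2.42% of all genes were. None of 11 epidermal defence genes and none of 9 genes of the DBL-1 TGF-beta pathway, which controls caenacins, was called in any comparison, where 2.42% to 11.5% of all genes were. On OP50 the genotypes nevertheless did not overlap in 6 of the 9 DBL-1 pathway genes (66.7%, against 30.7% of all genes), 4 above and 2 below wild type, and in 4 of the 11 epidermal defence genes (36.4%). Of 9 antimicrobial nlp peptide genes tested, nlp-25 was higher and nlp-24 lower in the mutant on OP50 (log2FC 1.42 and -0.61). They made 22.2%, against 11.5% of all genes. nlp-28 was lower on BW25113 in the mutant (log2FC -0.87), 11.1% of the list against 9.36% of all genes. On BW25113, nlp-25 was higher in the mutant than in wild type (log2FC 1.05), 11.1% against 5.68% of all genes.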

How the data were processed

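RNA-seq was analysed for 16 samples, 4 for each combination of rnp-6(G281D) or wild type with BW25113 or OP50. The authors removed ribosomal RNA, made stranded libraries read from both ends, and estimated abundance on WBcel235. The submitters' processing notes name kallisto 0.46.1, DESeq2 1.24 and Cufflinks 2.2.1. The main deposited table is a signal per gene, the estimated count divided by the authors' median-of-ratios size factors, called the normalized count here. The second deposited table holds FPKM per gene. The tool that made it is not given in the sources used here. Raw counts were not used: between 27.1% and 62.4% of the values under 15 were whole multiples of a step (within 0.01), which is too few to rebuild whole reads for a count test.

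The genes were found by symbol in the main table. Positions came from the Ensembl 115 annotation of WBcel235, where 7 of the genes tested (fip-2, fipr-3, lys-8, spp-1, spp-15, spp-16 and spp-19) overlap an exon of a gene on the other strand. The genes and lists were chosen with earlier results of these data known. Values are log2(normalized count + 1) for 15799 genes (mean of 10 or more), so fold changes of low genes are understated. limma 3.58.1 (R 4.3.3; lmFit, eBayes with trend) was fitted on the 8 samples of each pair and on all 16 for the interaction, two-sided, with Benjamini-Hochberg adjustment over all genes tested. The exact permutation test of a single gene can give no p below 0.0286. At a simulated log2 change of 1, 82.5% of 200 changed genes were recovered in the comparison on OP50 and 64.0% in the interaction, among 15799 genes.

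Genes named with values were the largest called changes without overlap, the abundant genes of each family and the interaction calls. Genes outside that rule (such as cnc-4, fipr-22, spp-2 and spp-14) were chosen after their values were seen. Replicate numbers are shared between groups. Over 10252 genes, r between the deviations of samples with the same number was 0.197 to 0.299 between genotypes on OP50, 0.212 to 0.564 between diets in wild type and 0.104 to 0.470 between genotypes on BW25113. These comparisons were read as paired by those correlations alone. The main fits held no replicate term, so their calls and p-values leave the pairing out. Only the replicate block, given as an alternative, takes it in. Between diets in rnp-6(G281D) it was -0.064 to 0.273. Alternatives were other pseudocounts, filters, scalings and thresholds, the FPKM table, 1 fit of all samples, the replicate block, and leaving out each sample.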

Additional observations from a re-analysis of the deposited data

Results flagged for a closer look

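In groups of 4, 8 values stood apart from the other three by Dixon's criterion on log2(normalized count + 1), out of 116 groups examined, where chance gives about 1 in 20. They were lys-2 in wild type BW25113 replicate 3 (4712 normalized counts, others 3702 to 3780), thn-1 in rnp-6(G281D) OP50 replicate 3 (20.4, others 8.13 to 9.09) and thn-1 in wild type BW25113 replicate 4 (21.2, others 27.2 to 28.4). Further ones were spp-22 in wild type OP50 replicate 1 (86.3, others 105.8 to 106.6), spp-1 in wild type OP50 replicate 4 (1055, others 976 to 986) and lys-8 in wild type OP50 replicate 2 (6276, others 5759 to 5777). cnc-8 was high in replicate 1 on BW25113 in both genotypes, at 787 in rnp-6(G281D) (others 675 to 692) and 778 in wild type (others 689 to 700). Without rnp-6(G281D) OP50 replicate 3, thn-1 was called higher in the mutant on BW25113 against OP50 (log2FC 1.11, adjusted p = 0.0302). On the normalized counts themselves 10 values stood apart, these 8 and a further 2, both from wild type BW25113 replicate 3: lys-3 (105.9, others 7.69 to 20.3) and irg-2 (77.9, others 24.03 to 30.5).

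The effect of BW25113 differed between rnp-6(G281D) and wild type by the limma interaction at an adjusted p under 0.05 in 8 genes. The difference was -0.57 for lys-1, -1.48 for lys-2, -1.93 for irg-2, -0.50 for irg-7 and -1.11 for spp-18, and 0.35 for spp-5, 0.36 for ilys-5 and 0.38 for spp-1.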

How the results depend on the processing

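No gene named with a called change reversed. Of 806 alternative values for 50 such changes, 736 stayed called and 70 did not, 45 of these among the 440 that left out 1 sample. With a mean of at least 100 normalized counts as the filter, which leaves 38 of the 59 genes, the number called was 10 between the genotypes on OP50, 9 between the diets in rnp-6(G281D), 5 between the diets in the wild type and 2 between the genotypes on BW25113. At an absolute log2FC over 1 it was 9, 7, 4 and 3, and 3 in the interaction. With no filter it was 3 between the diets in the wild type, where lys-2, lys-5, lys-10, irg-4, irg-5 and fip-6 were no longer called. The same setting lost irg-5 between the genotypes on OP50 (adjusted p = 0.0565), lys-10 between the diets in rnp-6(G281D) (0.113), and lys-10 (0.0679) and lys-5 (0.0864) between the genotypes on BW25113. Without 1 sample it was 19 to 21, 12 to 17, 5 to 10, 5 to 7 and 3 to 5. Genes called only without 1 sample included fipr-7 between the genotypes on OP50 (without rnp-6(G281D) OP50 replicate 2), abf-5, cnc-4, cnc-7, irg-5 and spp-23 between the diets in rnp-6(G281D), and cnc-2, cnc-4, irg-3 and spp-23 between the diets in the wild type. In FPKM values the calls of thn-1 and lys-5 on OP50, of lys-2 and irg-5 between the diets in the wild type, of lys-5 between the genotypes on BW25113 and of irg-7 in the interaction (-0.50) were lost. The replicate block called 23, 18, 13, 8 and 6 genes in the same order. For the diets in rnp-6(G281D), r between samples of the same number was only -0.064 to 0.273 over 10252 genes. There cnc-2, cnc-4, irg-5 and fipr-22 gained a call and lys-10 lost one. In cnc-2, cnc-4 and fipr-22, replicates 3 and 4 of the mutant were above replicates 1 and 2 on both diets. Depth limits the statements on genes near 3 reads, such as lys-10 and abf-2.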
